A study of Homo sapiens with 24 samples.

Results

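The replication-dependent histone genes encode the linker histone H1 and the core histones H2A, H2B, H3 and H4, the proteins around which DNA is wound in chromatin. They were chosen by name, as every protein-coding gene whose symbol in GENCODE release 29 begins with HIST1H, HIST2H, HIST3H or HIST4H. The rule found 71 genes, and all 71 were among the 57500 genes of the count tables. By protein, 6 encode H1, 17 encode H2A, 18 encode H2B, 15 encode H3 and 15 encode H4. By place, 55 lie on chromosome 6, 15 on chromosome 1 and 1 (HIST4H4) on chromosome 12.

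The study compared FaDu and SAS, 2 established human head and neck squamous carcinoma cell lines, grown for 4 days in agarose-coated wells as spheroids of about 400 µm. Each line gave 4 groups of 3 replicates, so the series holds 24 RNA-sequencing libraries in 8 groups. The groups were untreated spheroids (control), spheroids irradiated once (RT; 7 Gy for FaDu, 10 Gy for SAS), spheroids heated to 42.5 °C for 60 min (HT), and spheroids given both (HT+RT). All were collected 0.5 h after treatment. Because the radiation dose differs between the lines, dose and line cannot be told apart in the irradiated groups. Total counts per library ran from 15203484 to 29452514, with a median of 18378943. The labels call the molecule total RNA and the library kit directional. Whether poly(A) RNA was selected, and whether reads were counted by strand, is not given in the sources used here.

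Most messenger RNAs end in a poly(A) tail, but replication-dependent histone mRNAs end instead just after a conserved stem-loop, which is bound by the stem-loop binding protein SLBP. The genes have no introns in their classical form, are transcribed mainly in S phase, and their mRNAs are degraded quickly when DNA synthesis stops. Several of them also make longer, polyadenylated transcripts, which are known from differentiated and growth-arrested cells.

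The gene models differ in how much of these 2 forms they cover. In GENCODE release 29, 33 of the 71 models hold little beyond the coding sequence, and the other 38 extend past it. A script searched the transcripts for a stem-loop of 6 paired bases around a 4-base loop, allowing 1 mismatch in the stem and asking for at least 2 T in the loop, and found it in 32 members. The same pattern matched 1.17% of 82982 non-histone protein-coding transcripts. A poly(A) signal (AATAAA or ATTAAA in the last 50 bases of a transcript) was present in 23 members, 22 of which also have the stem-loop. The sites of 8 members that the results turn on are shown here, since they mark where the classical transcript would end. Each is read 5′ to 3′ in the sense of the transcript, with the 16-base stem-loop in capitals and up to 5 bases on either side.
HIST3H2A: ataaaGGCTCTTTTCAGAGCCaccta
HIST2H2BE: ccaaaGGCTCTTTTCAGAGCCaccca
HIST2H2BF: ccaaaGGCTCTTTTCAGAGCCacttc
HIST1H2AC: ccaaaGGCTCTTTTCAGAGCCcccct
HIST1H2BD: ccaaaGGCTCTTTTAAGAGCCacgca
HIST1H3E: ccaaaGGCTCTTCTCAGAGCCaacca
HIST1H2AG: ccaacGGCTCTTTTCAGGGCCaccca
HIST1H4I: aaaaaGGCCCTTTTTAGGGCCcctaa
The 16-base form shared by HIST3H2A, HIST2H2BE, HIST2H2BF and HIST1H2AC occurs in 17 members. The H4 genes carry other forms, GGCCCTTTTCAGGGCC in 5 members and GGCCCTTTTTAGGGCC in 3. In several models the annotated transcript runs far past the loop, for 1128 bases in HIST1H2AC, 1729 in HIST2H2BE and 390 in HIST3H2A. Counts in such models can come from either form of the transcript, and the tables do not separate them.

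Levels are given in CPM, each gene's counts over the total of its library on the customary scale, with library sizes scaled by edgeR's TMM factors over all 24 libraries. The summed level of the 71 genes in FaDu control was 313, 349.6 and 357 CPM in replicates 1, 2 and 3, a mean of 339.9 ± 23.2 (SD, n = 3). In SAS control it was 41.9, 42.0 and 46.2 CPM, a mean of 43.4 ± 2.48 (SD, n = 3). Every FaDu library lay far above every SAS library, and the ratio of the means was 7.84. The ratio was 8.32 in RT, 7.49 in HT and 7.76 in HT+RT, and without TMM scaling it was 9.59 in RT. In these bulk samples, fewer cells making a transcript and less transcript per cell cannot be told apart.

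The ratio was also taken by histone class, with no test between the classes. In control, the FaDu sum over the SAS sum was 16.4 for H2B, 13.1 for H4, 12.4 for H3, 9.36 for H1 and 4.36 for H2A. The lower H2A ratio goes with HIST3H2A, an H2A gene outside the large cluster. It held 48.7% of the summed level in SAS control but 8.41% of it in FaDu control. The 6 members with the most counts made up 63.2% of the sum in FaDu control and 75.9% in SAS control. Models with a poly(A) signal, 23 of the 71, held 65.9% of the sum in FaDu control and 76.2% in SAS control, and the 33 coding-only models held 21.1% and 15.3%.

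**Figure D1:**
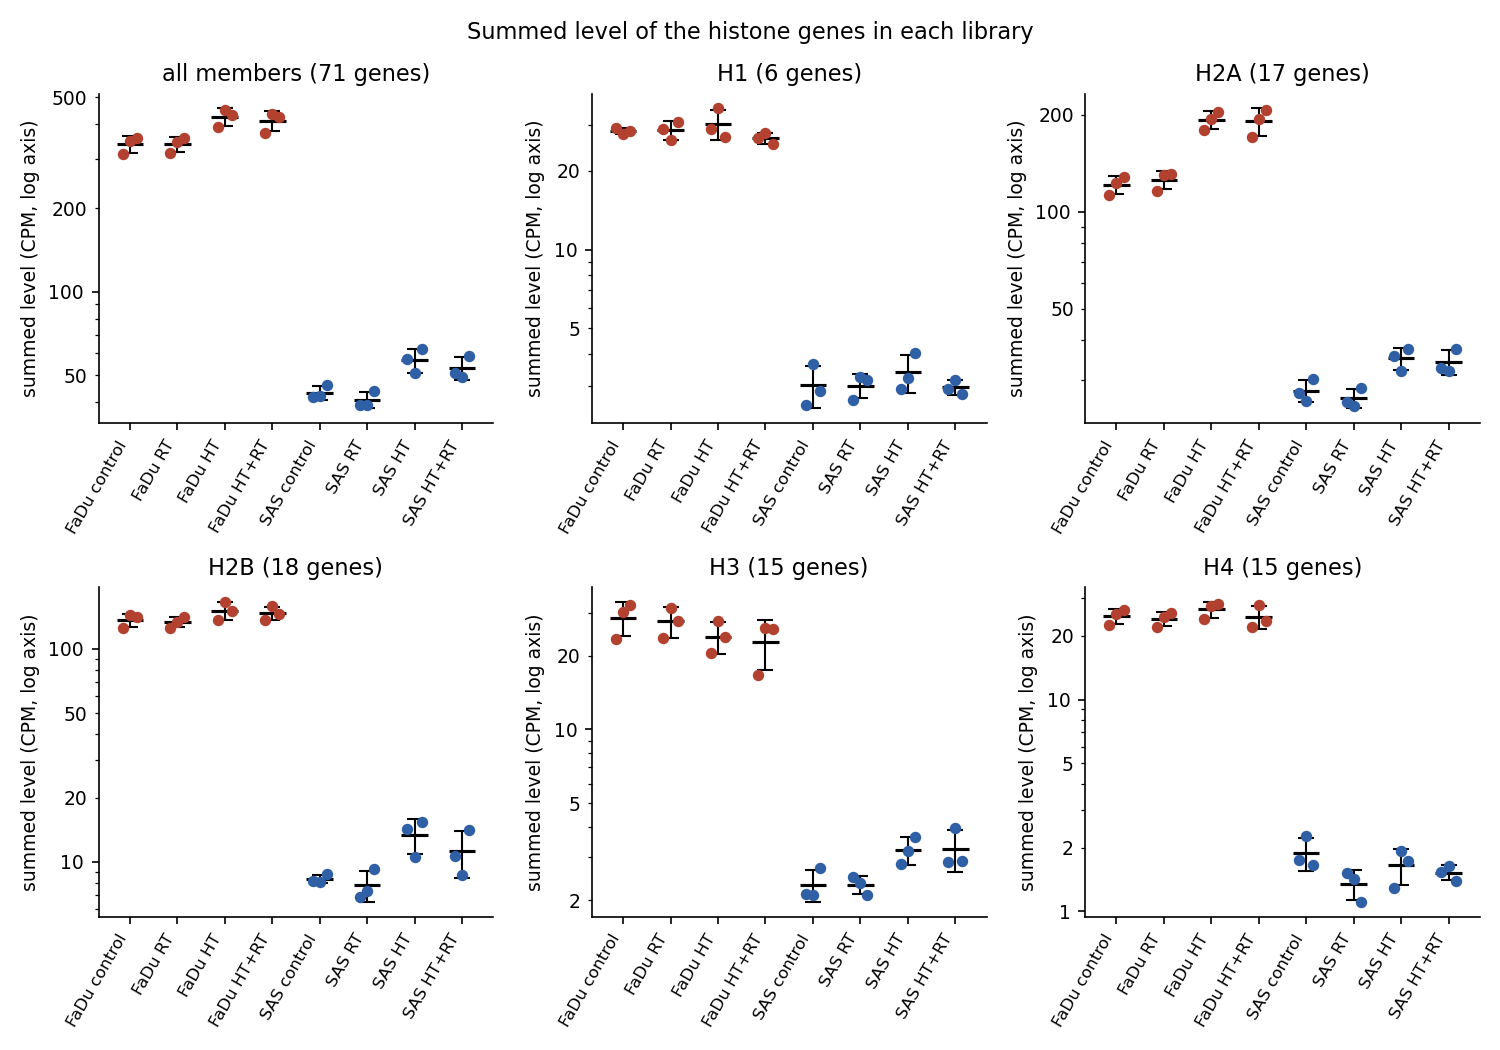
Summed level of all 71 histone genes and of each histone class (CPM, log axis) in the 24 libraries. Points are libraries, black lines are group means and bars are ±1 SD; FaDu libraries lie above SAS libraries in every panel, at 313 to 357 against 41.9 to 46.2 CPM for all members in control.

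Many members had few or no counts. No library held a count for 6 members (HIST1H2AK, HIST1H2BA, HIST1H3D, HIST2H3A, HIST2H3C and HIST2H3PS2), and 12 more had fewer than 24 counts over the 24 libraries. Of these 6, all but HIST1H2BA share 100% of their 50-base words (stretches of 50 bases) with other genes. Among the 12, HIST2H2AA3 does so too, and HIST2H2AA4, HIST2H4B and HIST1H2AD share 97.09% to 97.97%. The low counts of these genes therefore do not show that they are silent. In control, 11 members were at 0 in both lines and 11 more were at 0 in SAS alone. The mean was higher in FaDu for 55 members and lower for 5. All 3 FaDu control libraries exceeded all 3 SAS control libraries for 41 of the 71 members, and the opposite held for 1. Over all 57500 genes, 16484 had the higher mean in FaDu and 14513 in SAS, with 7950 (13.8%) wholly above and 7381 (12.8%) wholly below. Of the 30997 genes with a count in a control, these shares were 25.7% and 23.8%.

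Differences were tested with edgeR's quasi-likelihood test over all genes that passed its filter on low counts, with Benjamini-Hochberg adjustment over those genes. A gene is called altered at an adjusted p under 0.05 with an absolute log2 fold change over 1. Between the untreated lines 32 members passed the filter, and 29 of them were altered, against 38.1% of all 15810 genes tested. All 29 were higher in FaDu, the direction of 21.2% of all genes tested. The members' median log2 fold change was 3.44, and that of all genes tested was 0.03. Members passed the filter mostly through their FaDu counts, so the share of altered members and their median are partly fixed by the filter. Without the filter the member median was 2.73. Only 9 members also passed it in every comparison of a SAS treatment with SAS control, and 6 of these 9 were altered, all higher in FaDu, with a median of 2.52 over the 9. The other 3, HIST1H4C, HIST2H2AC and HIST3H2A, were the members tested but not altered.

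The treated groups were compared between the lines in the same way, with the same limit from the filter. In RT, 27 of 31 tested members were altered (38.7% of all genes tested), all higher in FaDu (21.7% of all genes tested). In HT it was 27 of 28 (40.1%), again all higher in FaDu (21.9%). In HT+RT it was 29 of 31 (40.4%), all higher in FaDu (22.1%). Of the 9 members that pass the filter within SAS, 6 were altered in RT, 8 in HT and 7 in HT+RT. Each of these comparisons has its own 6 libraries.

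**Figure D2:**
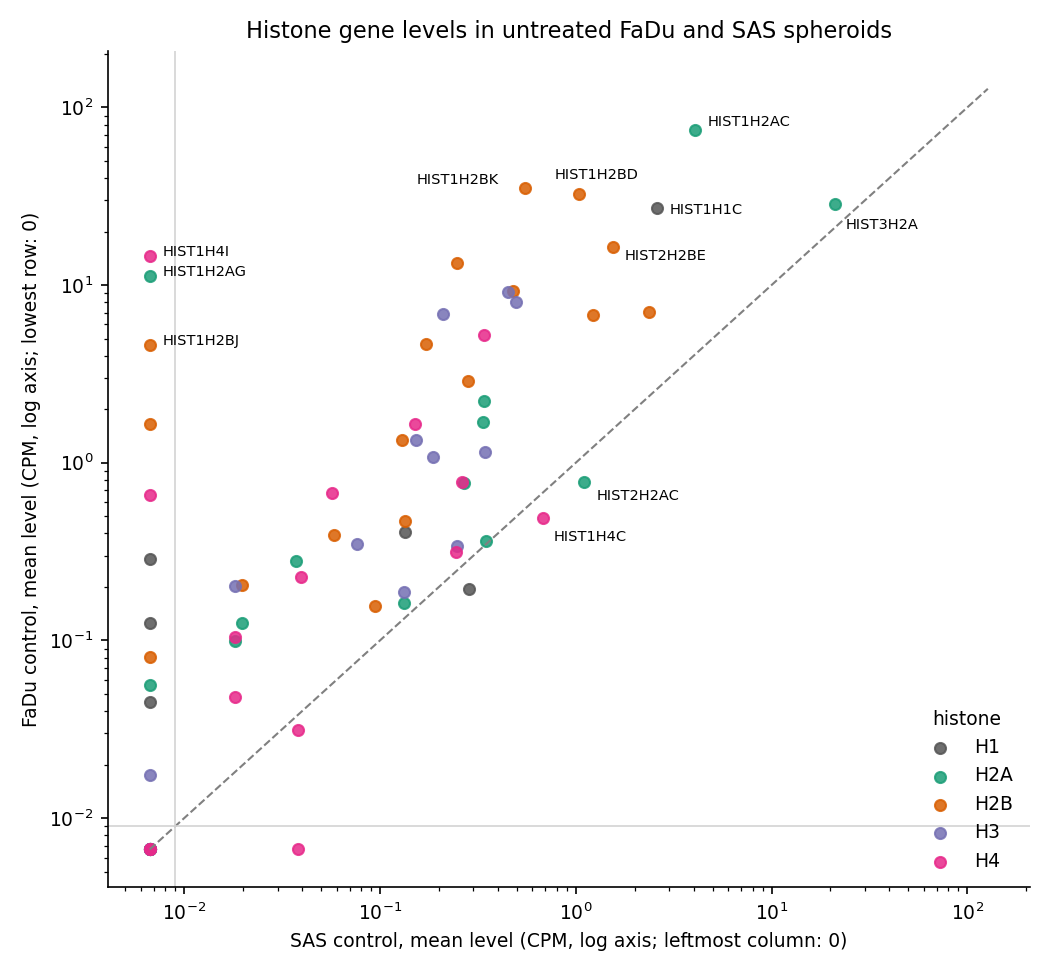
Mean level of each of the 71 histone genes in FaDu control (vertical, CPM, log axis) against SAS control (horizontal, CPM, log axis), coloured by histone class, with members at 0 in a line placed beyond the grey lines. The dashed line marks equal levels; 55 members lie above it and 5 below it, and HIST3H2A, HIST1H4C and HIST2H2AC lie close to it.

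A run of 3 core histone genes that lie next to each other on chromosome 6 had no count in any of the 12 SAS libraries. HIST1H4I, an H4 gene, had 239, 315 and 355 counts in the FaDu control libraries, or 14.5 ± 1.79 CPM (SD, n = 3). HIST1H2AG, an H2A gene, had 181, 239 and 285 counts there, or 11.2 ± 1.49 CPM. HIST1H2BJ, an H2B gene, had 78, 89 and 123 counts, or 4.59 ± 0.536 CPM. All 12 FaDu libraries held counts of all 3 genes, so the lines do not overlap at these genes. A count of 0 in the 3 SAS control libraries allows up to 3 counts over the group, or 0.0567 CPM. FaDu control was likewise taken as counts summed over the group, not as the means above. Against that floor it was at least 256-fold higher for HIST1H4I, at least 198.8-fold for HIST1H2AG and at least 81.77-fold for HIST1H2BJ. All 3 were altered by edgeR (adjusted p 4.96e-08, 9.66e-08 and 7.37e-07 in that order, Benjamini-Hochberg). These floors cover counting error only.

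Counts of the surrounding genes were read as well. The long intergenic RNA AL021807.1, the gene before HIST1H2BJ, had 185 counts over the 12 FaDu libraries and 0 over the 12 SAS libraries. On the other side, HIST1H2BK had 8226 counts in FaDu and 154 in SAS, and PRSS16, a nearby gene for a thymic serine protease, had 3438 and 1483. HIST1H2BF, another H2B gene, had 0 counts in SAS control and 32, 30 and 41 in FaDu control, but it had 0 to 3 counts per library in the other SAS groups. DNA copy number and sequence differences between the lines were not measured here.

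HIST1H2BJ and HIST1H2AG are transcribed away from each other, and both had no count in SAS, so the stretch between their starts is shown. It is RefSeq sequence of GRCh38.p14, plus strand, chr6:27132796-27133042, with HIST1H2BJ starting to its left on the minus strand. Capitals mark 3 motifs searched on both strands, the TATA box TATAAA, the CCAAT box CCAAT and the octamer ATTTGCAT, and TATAAA overlaps itself where it is read on both strands.
HIST1H2BJ and HIST1H2AG: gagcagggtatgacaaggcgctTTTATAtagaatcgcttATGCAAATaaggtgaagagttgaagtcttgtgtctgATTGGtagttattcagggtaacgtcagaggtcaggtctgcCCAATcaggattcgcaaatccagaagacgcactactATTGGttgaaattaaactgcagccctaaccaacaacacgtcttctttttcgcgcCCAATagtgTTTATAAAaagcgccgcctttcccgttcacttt
Its 247 bases hold 3 TATA boxes, 4 CCAAT boxes and 1 octamer. These motifs are frequent in the family. RefSeq promoters were matched for 62 of the 71 members, and in the 250 bases before the start 66.1% of them held TATAAA, 83.9% CCAAT and 38.7% ATTTGCAT. The shares over all 35116 promoters of the table were 10.7%, 32.0% and 1.63%. A match describes the letters and is not evidence of binding.

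Along chromosome 6, the difference was not limited to the histone genes. In the stretch that holds the 55 members, 25 members were tested in control and 24 were altered, all higher in FaDu, with a median log2 fold change of 4.05. These members passed the filter mostly through their FaDu counts, so this share and median are partly fixed by the filter. Of the 20 other protein-coding genes in the same stretch, 14 were tested, and 10 of them were altered and higher in FaDu, with none lower and a median of 1.67. The largest of these differences, 3.80, is that of AL031777.3, which spans all of HIST1H3D and 98.0% of HIST1H2AD on the same strand and is not independent of the histone genes. The other 9 include the butyrophilin genes BTN3A2, BTN2A2, BTN3A1 and BTN3A3, the iron regulator HFE and the zinc finger genes ZNF184 and ZNF391. Elsewhere on chromosome 6, 646 protein-coding genes were tested, of which 126 were higher and 92 lower in FaDu, with a median of 0.08. The stretch was examined after its values were seen, so these counts carry no test. Histone genes outside it were also higher in FaDu, among them HIST2H2BE, HIST2H2BF and HIST3H2BB on chromosome 1 and HIST4H4 on chromosome 12.

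**Figure D3:**
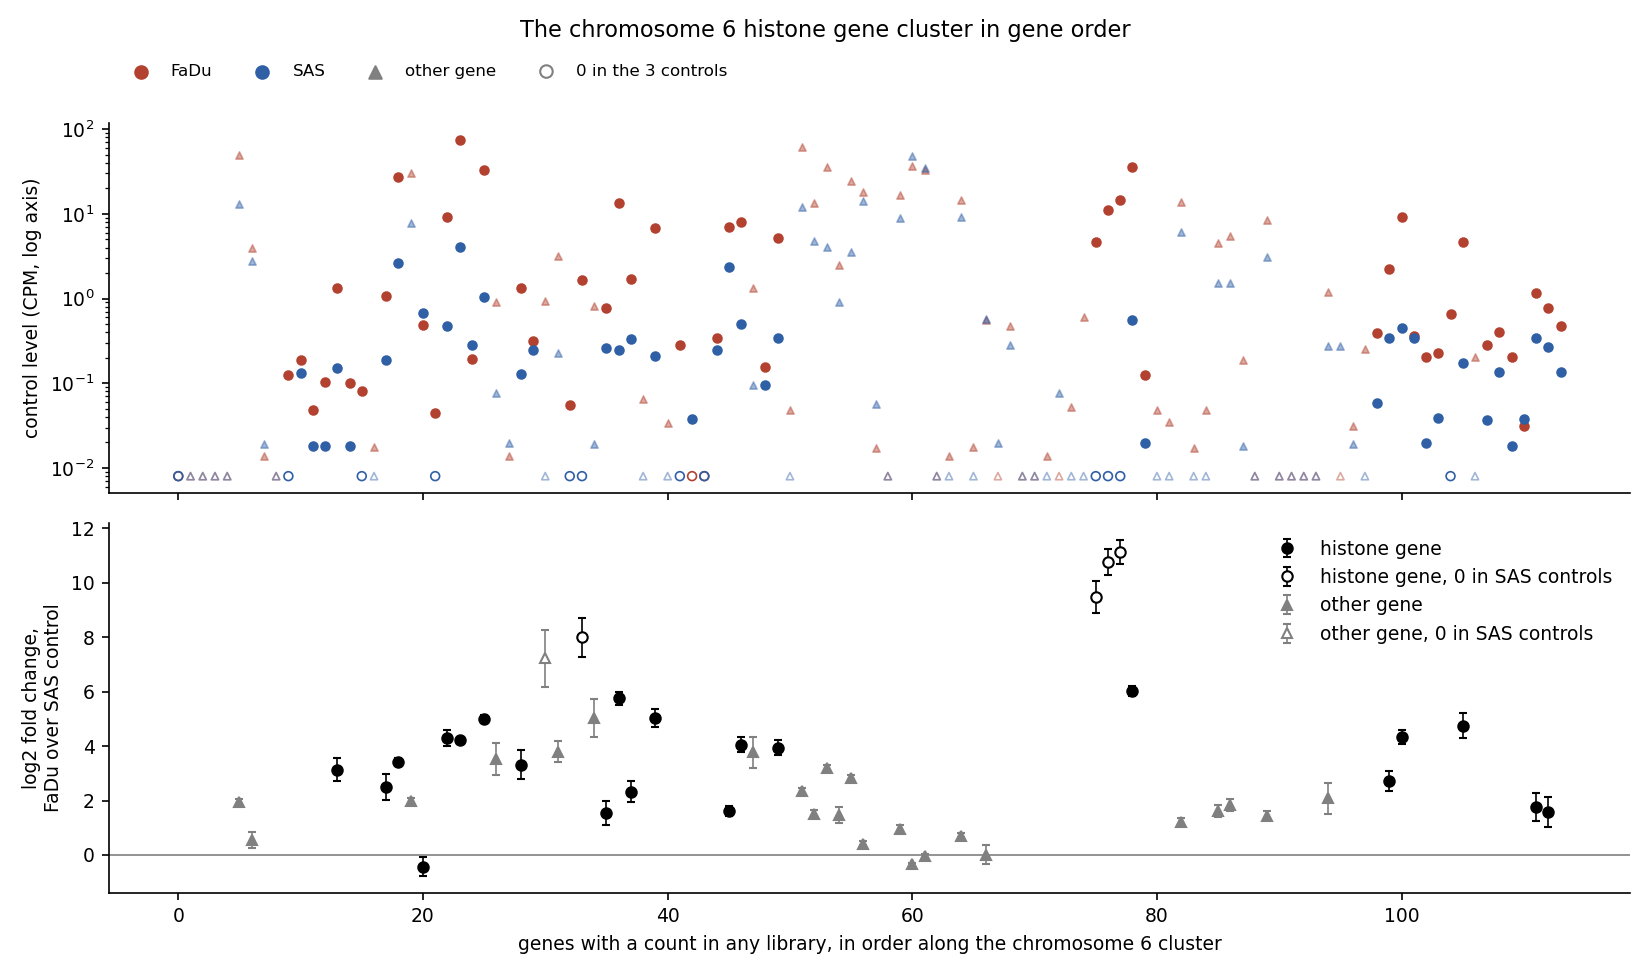
Genes of the chromosome 6 histone cluster with a count in any library, in gene order, with the mean control level (top, CPM, log axis) and the log2 fold change of FaDu over SAS control with its SE (bottom). Circles are histone genes and triangles other genes. Open symbols are at 0 in the 3 controls, where the fitted fold change is no bound. Of 25 tested histone genes 24 were altered, all higher in FaDu, a share partly fixed by the filter on low counts.

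Among genes, levels can be compared only per length, here as CPM per kilobase of exons. In FaDu control the highest H2B gene was HIST1H2BK, at 92.5 ± 8.24 CPM per kb (SD, n = 3), followed by HIST1H2BD at 37.5 ± 1.89. The highest H1 gene was HIST1H1C, which encodes a linker histone variant, at 42.5 ± 1.65 CPM per kb. The 2 leading H2A genes were HIST1H2AC at 44.9 ± 2.52 and HIST3H2A at 31.9 ± 1.98 CPM per kb. HIST1H2AC led in control, and HIST3H2A led over all 12 FaDu libraries because it rose with heat. The highest H4 gene was HIST1H4I at 11.2 ± 1.38 and the highest H3 gene HIST1H3H at 7.37 ± 1.43 CPM per kb. Coding-only models such as that of HIST1H2BK are short, and 74.1% of its 50-base words also occur in other genes, mostly H2BFS, so its count is uncertain.

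SAS control had another order. HIST3H2A stood first at 23.6 ± 1.95 CPM per kb, followed by HIST1H1C at 4.07 ± 0.714, HIST2H2AC at 2.83 ± 0.852 and HIST1H2AC at 2.44 ± 0.180. HIST2H2AC lies within the summed SDs of both HIST1H1C and HIST1H2AC, so its place in this order is not settled. HIST1H4C, the leading H4 gene in SAS, was at 1.57 ± 0.193 CPM per kb. The highest H3 gene in SAS control was HIST1H3F at 0.6004 ± 0.102, while HIST1H3C, at 0.455 ± 0.282 CPM per kb in control, led over all 12 SAS libraries. Thus the gene with the highest level in SAS was the one with the smallest difference between the lines among those with most counts.

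The sizes of the differences spanned a wide range. Setting aside members of low abundance or with overlapping groups, the largest altered differences after the 3 genes at 0 in SAS were HIST1H2BK and HIST1H2BG. HIST1H2BK was at 32.7, 38.8 and 34.2 CPM in FaDu control and at 0.435, 0.456 and 0.766 CPM in SAS control. HIST1H2BG had 247, 269 and 315 counts against 3, 7 and 3. Both are near the detection limit in SAS, with 8 to 13 and 3 to 7 counts per control library, and the log2 differences were 6.02 (SE 0.19) and 5.75 (SE 0.25). The smallest was HIST1H2BH, at 7.87, 6.16 and 7.05 CPM in FaDu control and 2.67, 2.28 and 2.12 CPM in SAS control. It was still above SAS in every library, with a log2 difference of 1.60 (SE 0.19; adjusted p 1.45e-05, edgeR with Benjamini-Hochberg). Between these, the log2 difference was 2.52 for HIST3H2BB, 3.41 for HIST1H1C, 3.42 for HIST2H2BE, 3.95 for HIST1H4H, 4.34 for HIST1H3H and 2.48 for HIST1H3C.

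HIST3H2A, unlike the other abundant members, was not altered between the untreated lines. Its level in FaDu control was 27.3, 27.8 and 30.6 CPM, and in SAS control 21.1, 19.4 and 22.9 CPM. The lines did not overlap, but the log2 difference was 0.47 (SE 0.09; edgeR adjusted p 0.000858, Benjamini-Hochberg), under the fold threshold. HIST1H4C was at 0.420, 0.458 and 0.587 CPM in FaDu control and at 0.598, 0.684 and 0.766 CPM in SAS control. It is the 1 member whose SAS control libraries all lay above the FaDu libraries, with a log2 difference of -0.43 (SE 0.34; edgeR adjusted p 0.275, Benjamini-Hochberg). HIST2H2AC, at 0.782 ± 0.300 CPM in FaDu and 1.10 ± 0.332 in SAS control, overlapped between the lines.

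Radiation alone altered no member by edgeR in either line. In FaDu, 0 of 33 tested members were altered (0.00643% of all genes tested), 2 had an unadjusted p under 0.05, and DESeq2 called 0. In SAS, 0 of 11 tested members were altered (0.0272% of all genes tested), 1 had an unadjusted p under 0.05, and DESeq2 called 0. HIST1H2BH, an H2B gene, had the lowest unadjusted p of the members in both lines. It was at 4.73, 4.32 and 5.49 CPM in FaDu RT, below its 3 controls, with a log2 change of -0.53 (SE 0.15) and an adjusted p of 0.596 (edgeR, Benjamini-Hochberg). In SAS RT it was at 1.13, 1.83 and 1.61 CPM, also below its 3 controls, with a log2 change of -0.62 (SE 0.26) and an adjusted p of 0.827. HIST1H2BH was chosen here after its values were seen, as were HIST1H2AC, HIST2H2AC, HIST1H3F and HIST1H2BF where they are named. The summed level was 339.5 ± 20.6 CPM in FaDu RT and 40.8 ± 2.80 CPM in SAS RT, within 1 SD of the controls in FaDu and about 1 SD below them in SAS. By class, the SAS H4 sum was 1.52, 1.42 and 1.11 CPM in RT, below its 3 controls of 1.74, 2.28 and 1.65 CPM, at 0.714 times control. The other class sums overlapped their controls in RT as groups. Between libraries of the same replicate number, the summed level and the H2A sum were lower in all 3 SAS RT libraries. In FaDu RT the H2A sum was higher and the H4 sum lower in all 3, and no sum was tested.

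The summed level was higher in the heated libraries of both lines. In FaDu HT it was 390.5, 451 and 434 CPM, and in SAS HT it was 57.1, 51.0 and 62.2 CPM. All 3 heated libraries lay above the 3 controls of their line, at 1.25 times control in FaDu and 1.31 times in SAS. By class, with no test between classes, the FaDu H2A sum was 1.59 times control, and all 3 heated libraries lay above the controls. Most of that difference is HIST3H2A, at a mean of 28.6 CPM in control and 80.2 in HT, against 121 and 193 for the whole class. The FaDu H2B sum was 1.11 times, the H4 sum 1.08 times, the H1 sum 1.06 times and the H3 sum 0.837 times control. Between libraries of the same replicate number, H2B was higher in all 3 heated libraries (137, 166 and 151 CPM against 126, 144 and 141). H4 was also higher in all 3 (24.02, 27.65 and 28.17 CPM against 22.46, 25.26 and 26.43). H3 was lower in all 3 (20.5, 27.8 and 23.8 CPM against 23.6, 30.3 and 32.2), and H1 went both ways. In SAS the H2B sum was 1.61 times control, H3 1.39 and H2A 1.26, all without overlap, while the H4 sum at 0.875 times overlapped. The 6 heat shock genes used as a check (HSPA1A, HSPA1B, HSPA6, DNAJB1, HSPH1 and BAG3) were altered upward in HT and HT+RT of both lines, 6 of 6 each time, and 0 of 6 in RT.

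Few members were altered by heat one by one. In FaDu HT against control, 2 of 34 tested members were altered, 1 up and 1 down, against 4.97% of all genes tested. The members' median log2 fold change was -0.00, and that of all genes tested was 0.01. The same test gave 13 members at an unadjusted p under 0.05 and 7 at an adjusted p under 0.05 of any size, against 4885 and 2801 of 15879 genes tested. With the replicate number as a block, 3 members were altered, the added one being the H4 gene HIST1H4C, at 0.935, 0.732 and 1.53 CPM in HT against 0.420, 0.458 and 0.587 CPM in control.

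The member that rose in FaDu was HIST3H2A, which encodes a canonical H2A from a small group of histone genes on chromosome 1. It went from 27.3, 27.8 and 30.6 CPM in control to 74.6, 77.2 and 88.7 CPM in HT. The groups lay far apart, and the log2 fold change was 1.51 (SE 0.09; adjusted p 2.09e-05, edgeR with Benjamini-Hochberg). Its share of the summed level went from 8.41% in FaDu control to 18.9% in HT. In SAS it was at 27.1, 25.2 and 28.7 CPM in HT, above its 3 controls, but the log2 fold change of 0.39 (SE 0.10; edgeR adjusted p 0.0131) was under the fold threshold.

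HIST3H2BB, an H2B gene, starts close to HIST3H2A on the other strand. In FaDu it was at 5.20, 6.72 and 8.56 CPM in control and at 10.1, 9.98 and 12.1 CPM in HT. The groups did not overlap, and the log2 change was 0.67 (SE 0.19; edgeR adjusted p 0.0406, Benjamini-Hochberg), under the fold threshold. In SAS it was at 0.924, 1.03 and 1.71 CPM in control and at 1.63, 1.10 and 2.22 CPM in HT, with overlap. Since these neighbours were higher together in heated FaDu, the sequence between their starts is shown, from RefSeq, GRCh38.p14, plus strand, chr1:228457874-228458102, with HIST3H2A starting to the left on the minus strand. Capitals mark the CCAAT boxes.
HIST3H2A and HIST3H2BB: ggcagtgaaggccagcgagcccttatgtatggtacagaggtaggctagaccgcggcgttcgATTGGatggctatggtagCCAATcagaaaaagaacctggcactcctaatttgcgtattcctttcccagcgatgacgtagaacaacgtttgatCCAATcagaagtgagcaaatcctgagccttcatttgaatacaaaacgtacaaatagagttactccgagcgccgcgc
Its 229 bases hold 3 CCAAT boxes, 0 matches to TATAAA and 0 to the octamer. A heat shock element core, written GAANNTTC, was also searched in the 250 bases before each start. It was found in 4 of 62 members (6.45%) and in 5.78% of all promoters. The 4 are HIST1H3B, HIST1H3F, HIST2H3A and HIST2H3C, of which the last 2 have no count in any library and HIST1H3F has too few to be tested. HIST2H3A and HIST2H3C share 100% of their 50-base words with each other, so their counts of 0 do not show that they are silent. No match says only that these letters are not in the window.

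The member that fell in FaDu HT was HIST2H4A, an H4 gene with few counts. It had 15, 13 and 14 counts in the control libraries and 5, 6 and 3 in HT, and the log2 fold change was -1.37 (SE 0.41; edgeR adjusted p 0.0492, Benjamini-Hochberg). The groups did not overlap, but the call did not hold in 9 of 10 other settings, with adjusted p from 0.0395 to 0.179. Of its 50-base words, 97.5% also occur in HIST2H4B, a near-identical copy, so the count may belong to either gene. In FaDu HT+RT it had 12, 7 and 18 counts, with a log2 change from control of -0.21.

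HIST2H2BE, an H2B gene known for a long polyadenylated transcript, came close to the fold threshold in FaDu. It was at 14.0, 18.1 and 16.8 CPM in control and at 26.0, 35.6 and 32.4 CPM in HT. The heated libraries all lay above the controls, with a log2 change of 0.97 (SE 0.14; edgeR adjusted p 0.00244, Benjamini-Hochberg). It was called without FaDu control replicate 2 or FaDu HT replicate 1. HIST1H2AC, the H2A gene with the most counts in FaDu, was at 70.1, 76.2 and 78.2 CPM in control and 88.7, 98.8 and 95.6 CPM in HT, a log2 change of 0.36 (SE 0.07; edgeR adjusted p 0.0103). HIST1H2BG and HIST1H4H also had an adjusted p under 0.05 with log2 changes of 0.35 and 0.51.

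In SAS HT against control, 3 of 12 tested members were altered, all up, against 6.03% of all genes tested. The members' median log2 fold change was 0.49, and that of all genes tested was 0.00. All 3 are H2B genes.

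HIST2H2BE was at 1.79, 1.65 and 1.18 CPM in SAS control and at 4.17, 2.71 and 5.26 CPM in SAS HT. The groups did not overlap, and the log2 fold change was 1.41 (SE 0.29; adjusted p 0.0037, edgeR with Benjamini-Hochberg). HIST2H2BF, a neighbouring H2B gene, had 5, 6 and 4 counts in SAS control and 21, 15 and 22 in SAS HT, or 0.283 ± 0.0541 and 1.05 ± 0.234 CPM. Its log2 fold change was 1.90 (SE 0.41; adjusted p 0.0055). HIST2H2BF shares 26.9% of its 50-base words with other genes, and 386 of these 857 words occur in the pseudogene HIST2H2BA. Of its exons, 5.54% lie opposite FCGR1A on the other strand. HIST1H2BD was at 1.03, 0.798 and 1.30 CPM in SAS control and at 2.03, 1.72 and 2.49 CPM in SAS HT. The heated libraries were all higher, with a log2 fold change of 1.02 (SE 0.30; adjusted p 0.0266), close to the fold threshold. Leaving out SAS control replicate 1 or 2, or SAS HT replicate 1 or 3, ended the call of HIST1H2BD.

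The 250 bases before the start of HIST2H2BE, which had a higher level after heat in both lines, are shown from RefSeq, GRCh38.p14, minus strand, chr1:149886683-149886932. Capitals mark 2 TATA boxes, 3 CCAAT boxes and 1 octamer, read on either strand.
HIST2H2BE: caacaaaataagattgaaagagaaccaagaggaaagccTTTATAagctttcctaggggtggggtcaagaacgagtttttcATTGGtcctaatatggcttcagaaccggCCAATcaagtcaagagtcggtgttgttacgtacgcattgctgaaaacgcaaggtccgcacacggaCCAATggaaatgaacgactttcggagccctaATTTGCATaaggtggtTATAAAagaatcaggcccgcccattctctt
It holds no match to GAANNTTC. The sequence thus has the TATA box and octamer that the stretch between HIST3H2A and HIST3H2BB lacks.

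**Figure D4:**
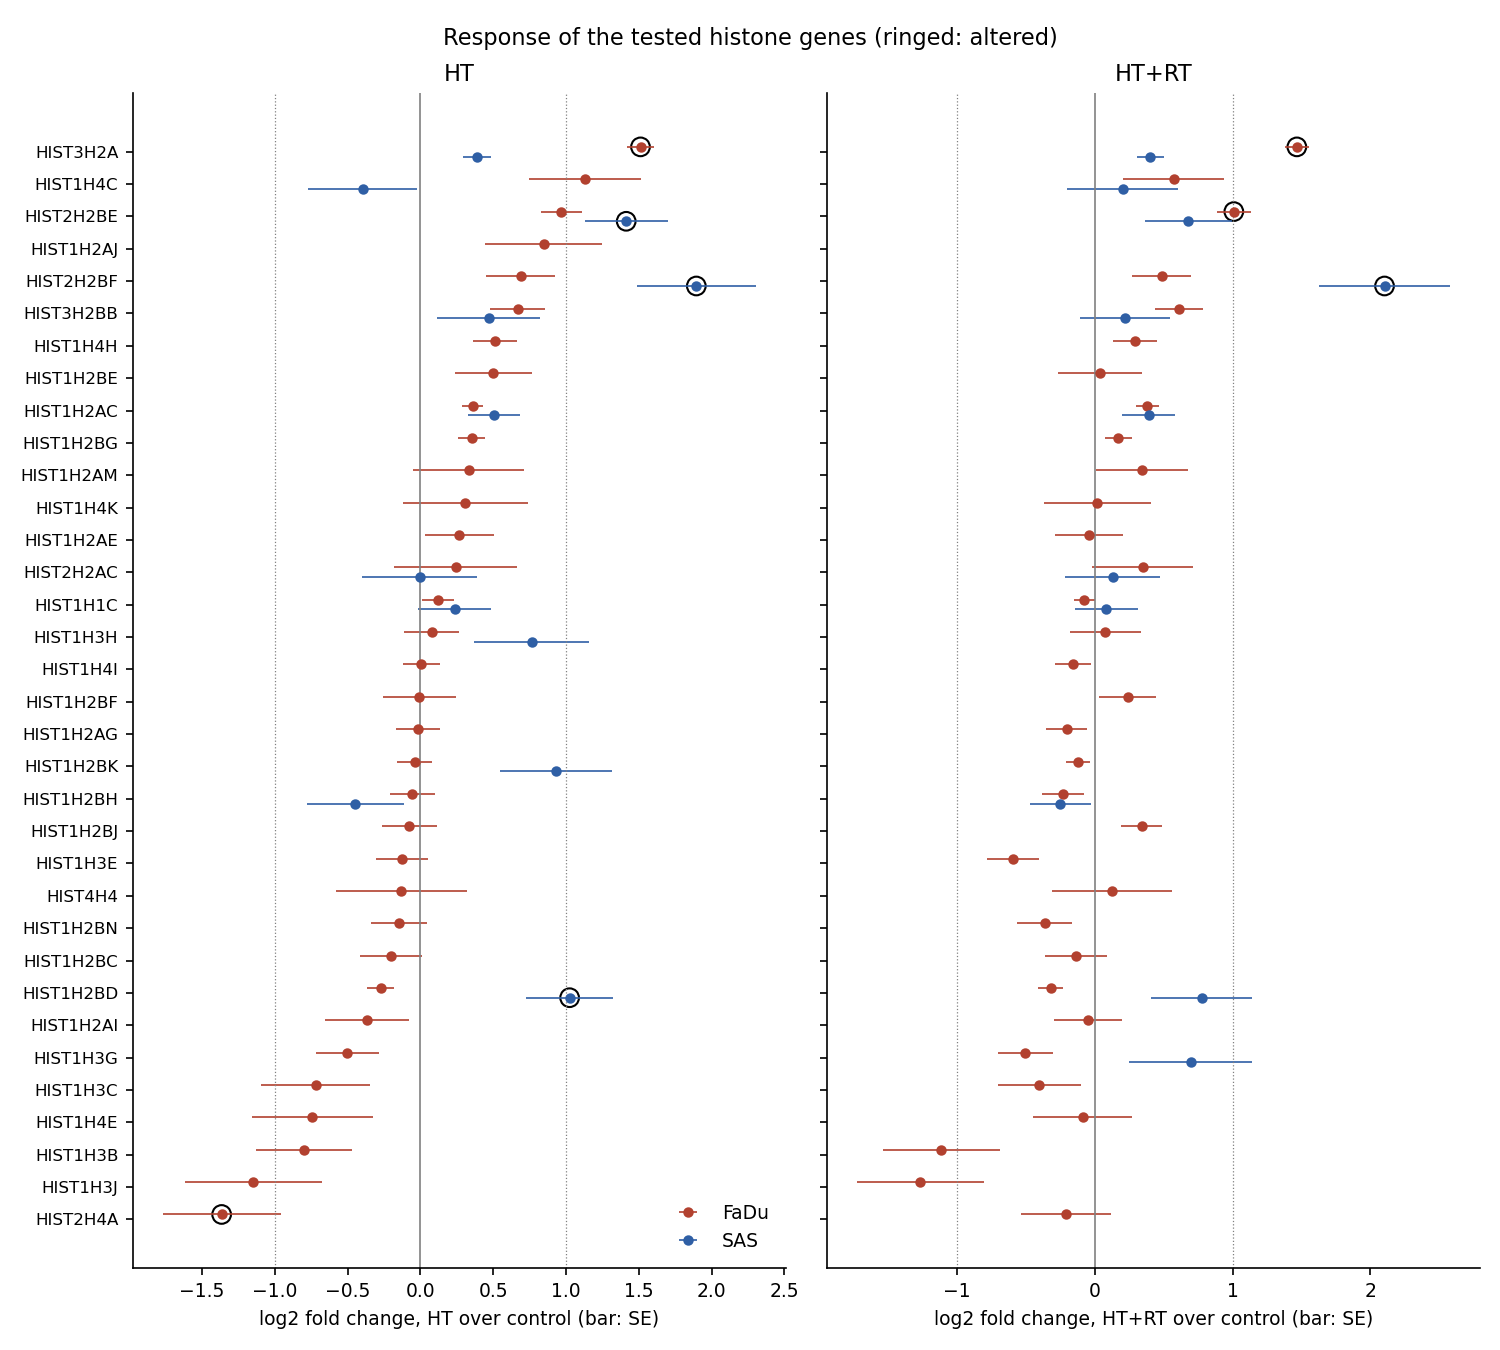
Log2 fold change over control (horizontal, with SE) of every histone gene tested, in HT (left) and HT+RT (right), for FaDu (red) and SAS (blue). Rings mark altered members and dotted lines the fold threshold; HIST3H2A in FaDu (1.51 and 1.47) and HIST2H2BF in SAS (1.90 and 2.10) stand furthest right among ringed points.

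Heat with radiation was also compared with control. These comparisons use the same controls as those of HT, so the 2 sets are not independent. In FaDu HT+RT against control, 2 of 33 tested members were altered, both up, against 5.72% of all genes tested. HIST3H2A was at 70.8, 76.7 and 86.1 CPM, with a log2 fold change of 1.47 (SE 0.09; edgeR adjusted p 9.42e-06, Benjamini-Hochberg). HIST2H2BE was at 28.2, 35.2 and 33.7 CPM, with a log2 fold change of 1.01 (SE 0.12; edgeR adjusted p 0.000688). Both lay above all 3 controls, but HIST2H2BE lost its call in 4 of 10 settings, namely without the filter and without FaDu control replicate 1, FaDu HT+RT replicate 2 or FaDu HT+RT replicate 3. With the replicate number as a block, 4 members were altered, the other 2 being the H3 genes HIST1H3B and HIST1H3J, both lower. The summed level was 373.5, 435 and 427 CPM, at 1.21 times control, and HIST3H2BB was at 9.77, 10.5 and 10.7 CPM.

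In SAS HT+RT against control, 1 of 11 tested members was altered, against 6.36% of all genes tested. HIST2H2BF had 21, 12 and 31 counts against 5, 6 and 4 in control, with a log2 fold change of 2.10 (SE 0.48; edgeR adjusted p 0.00709, Benjamini-Hochberg). Its libraries all lay above the controls. HIST2H2BE was at 2.20, 1.59 and 3.37 CPM, which overlaps its controls, with a log2 change of 0.68 (SE 0.31; edgeR adjusted p 0.144). HIST1H2BD was at 1.13, 1.39 and 2.59 CPM, also overlapping, with a log2 change of 0.78 (SE 0.37; edgeR adjusted p 0.153). Each of its HT+RT libraries lay above the control of the same replicate number, but the replicate block added no call. HIST3H2A was at 26.8, 25.4 and 28.6 CPM, above its controls, with a log2 change of 0.40 (SE 0.10; edgeR adjusted p 0.0097). The summed level was 50.9, 49.4 and 58.9 CPM, at 1.22 times control. Leaving out SAS control replicate 2 or SAS HT+RT replicate 2 added a call of HIST1H2BG, giving 2 members.

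Adding radiation to heat altered no member. For FaDu HT+RT against HT, edgeR called 0 of 33 tested members and 0% of all genes tested, with 2 members at an unadjusted p under 0.05 and 0 called by DESeq2. For SAS HT+RT against HT it called 0 of 14 and 0% of all genes tested, with 1 member at an unadjusted p under 0.05 and 0 called by DESeq2. The member median log2 difference was -0.06 in FaDu and 0.00 in SAS. HIST2H2BE in SAS had an unadjusted p of 0.0327 by edgeR, with a log2 difference of -0.74 (SE 0.31; adjusted p 1.0).

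**Figure D5:**
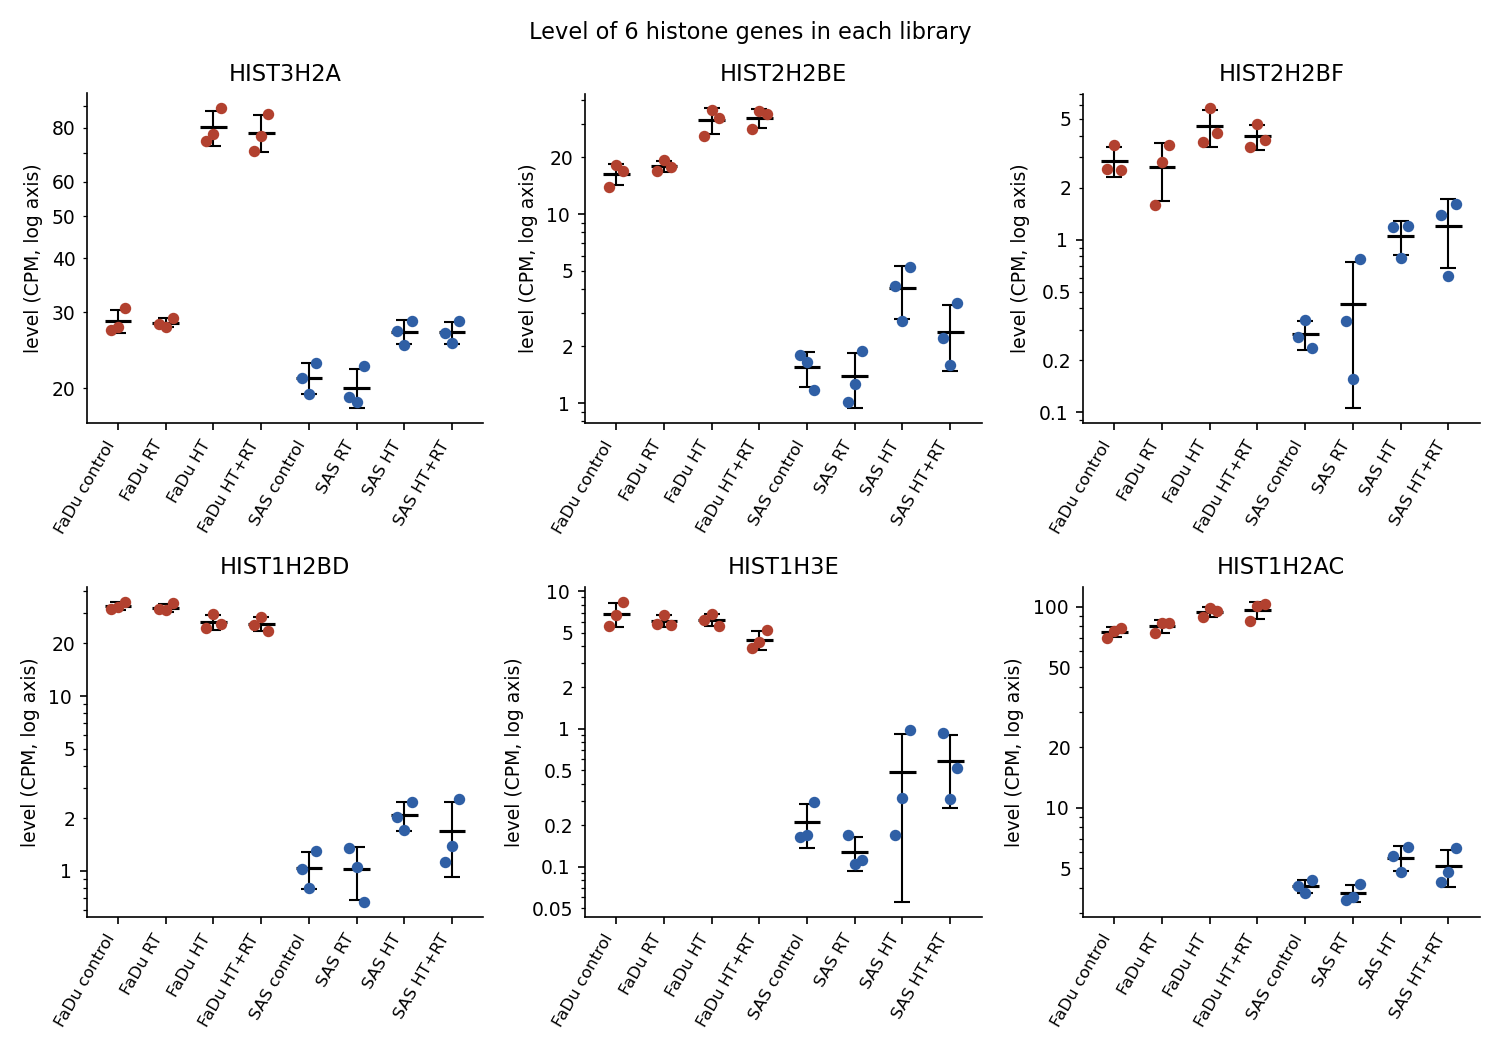
Level (CPM, log axis) of 6 histone genes in the 24 libraries, with group means and ±1 SD. HIST3H2A rises in heated FaDu (74.6 to 88.7 CPM in HT against 27.3 to 30.6 in control), while HIST1H2BD lies at 24.4 to 29.4 CPM in FaDu HT against 31.3 to 34.5 in control.

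Whether heat acted differently in the lines was tested directly, as the interaction of line and treatment over 12 libraries. For HT, 2 of 34 tested members were altered, against 2.74% of all genes tested. HIST3H2A rose more in FaDu, with a log2 difference of 1.15 (SE 0.13; adjusted p 7.3e-05, edgeR with Benjamini-Hochberg). For HIST1H2BD the difference was -1.27 (SE 0.24; adjusted p 0.00562), since it was higher after heat in SAS and not in FaDu. Its FaDu values were 31.3, 32.1 and 34.5 CPM in control and 24.4, 29.4 and 25.9 CPM in HT. Every heated FaDu library was lower, at a log2 change of -0.27 (SE 0.09; edgeR adjusted p 0.0791).

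For HT+RT, 2 of 34 tested members were altered in the interaction, against 3.4% of all genes tested. HIST3H2A again rose more in FaDu, by a log2 difference of 1.10 (SE 0.13; edgeR adjusted p 6.29e-05, Benjamini-Hochberg). In 3 of 16 other settings the difference fell just under the threshold, at 0.97 without FaDu HT+RT replicate 3, 0.98 without SAS control replicate 3 and 0.9999 without SAS HT+RT replicate 2. The other was HIST1H3E, an H3 gene, with a difference of -2.02 (SE 0.56; edgeR adjusted p 0.0394). It was at 5.56, 6.67 and 8.35 CPM in FaDu control and at 3.89, 4.25 and 5.23 CPM in FaDu HT+RT. In SAS it had 3, 3 and 5 counts in control and 14, 6 and 10 in HT+RT. The FaDu libraries were lower and the SAS libraries higher, but the SAS counts are few. The call was lost in 7 of 16 other settings, each of them without a library (FaDu control replicate 2 or 3, FaDu HT+RT replicate 2, SAS control replicate 1 or 2, SAS HT+RT replicate 1 or 3) (adjusted p from 0.00665 to 0.122). HIST2H2BE had interaction values of -0.41 for HT and 0.36 for HT+RT, neither past the threshold, so its response was not shown to differ between the lines. For HIST2H2BF the values were -1.18 and -1.59, with adjusted p 0.178 and 0.0792 (edgeR, Benjamini-Hochberg). The HT+RT value of HIST1H2BD was -1.07, with adjusted p 0.0624. With the replicate number as a block, both were called in HT+RT, HIST2H2BF at -1.56 (adjusted p 0.0243) and HIST1H2BD at -1.05 (adjusted p 0.00799), which makes 4 members. HIST1H2BD was called in 7 of 16 other settings, those being the block, DESeq2, no filter, and fits without FaDu HT+RT replicate 2, SAS control replicate 3, or SAS HT+RT replicate 1 or 2. HIST2H2BF was called in 3 of 16, the block, no filter, and the fit without SAS HT+RT replicate 2.

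Genes that act on histone mRNA were read beside the members, with no test between the lists. Of 22 listed genes for histone mRNA processing and decay, 21 were found and tested between the controls, with 1 higher in FaDu (CPSF2, log2 1.42) and 1 lower (LSM11, log2 -1.24), against 38.1% of all genes altered. At an adjusted p under 0.05 of any size (edgeR, Benjamini-Hochberg), 2 were higher and 14 lower in FaDu, and the median was -0.36. Of all 15810 genes tested, 11855 passed that threshold, 6095 of them higher in FaDu. SLBP itself was at 86.6, 84.5 and 83.6 CPM in FaDu control and at 115, 106 and 109.9 CPM in SAS control, lower in every FaDu library. In HT it was at 71.8, 69.2 and 68.7 CPM in FaDu, below its controls, and at 122, 135 and 138 CPM in SAS, above its controls. Between the lines, SLBP was altered and lower in FaDu in HT+RT. With heat, 1 of the 21 was altered in SAS and 0 in FaDu, where 8 had an unadjusted p under 0.05. ZNF473, a zinc finger protein of the histone pre-mRNA cleavage complex, went from 14.0, 15.1 and 14.2 CPM in SAS control to 38.9, 38.1 and 36.8 CPM in SAS HT. The log2 fold change was 1.43 (SE 0.09; edgeR adjusted p 3.44e-07, Benjamini-Hochberg), and 1.75 (SE 0.09; adjusted p 8.2e-08) in HT+RT. In FaDu it was at 7.45, 10.2 and 8.98 CPM in control, 13.6, 10.3 and 14.7 in HT and 16.5, 13.7 and 14.7 in HT+RT, also without overlap. The FaDu log2 changes were 0.56 (edgeR adjusted p 0.0554) and 0.77 (adjusted p 0.00476), and the interactions of -0.84 and -0.95 were under the fold threshold.

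Genes of the cell cycle were read in the same way. Of 24 S phase genes, 0 were higher and 4 lower in FaDu control (MCM4 -1.42, MCM6 -1.05, MCM7 -1.66 and RRM2 -1.56, log2), with a median of -0.42. Of 20 genes of G2 and M phase, 0 were higher and 2 lower (AURKB -1.62 and BUB1 -1.68). Over all genes tested, 2664 of 15810 were altered and lower in FaDu. At an adjusted p under 0.05 of any size (edgeR, Benjamini-Hochberg), 4 S phase genes were higher and 17 lower, and 1 gene of G2 and M phase was higher and 10 lower. Of 8 genes for histone gene transcription, HINFP was lower at -1.31, and of 17 histone chaperones, CHAF1B was lower at -1.58. The cell cycle of the spheroids was not measured, and its part in the histone gene difference was not tested. None of these 4 lists held an altered gene in any comparison of a treatment with control by edgeR, while 0 to 13 genes per list had an unadjusted p under 0.05. At an adjusted p under 0.05 of any size (edgeR, Benjamini-Hochberg), SAS HT had 0 S phase genes higher and 9 lower, and 1 gene of G2 and M phase higher and 10 lower. Of all 15000 genes tested there, 3540 passed, 1823 of them higher. In FaDu HT 3 were lower in each list and 0 higher, where 2801 of 15879 genes passed, 1262 of them higher.

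NPAT, a coactivator of histone gene transcription, came close to the fold threshold after heat in both lines. It was at 29.6, 29.6 and 33.7 CPM in FaDu control and at 17.5, 16.4 and 15.2 CPM in FaDu HT. In SAS it was at 28.4, 27.7 and 30.8 CPM in control and at 17.5, 16.4 and 16.2 CPM in HT. The groups did not overlap in either line, with log2 changes of -0.90 (SE 0.09; edgeR adjusted p 0.000405, Benjamini-Hochberg) and -0.76 (SE 0.09; adjusted p 0.000116). In HT+RT the log2 changes were -0.80 in FaDu and -0.83 in SAS. NPAT was chosen here after its values were seen.

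Replication-independent histone genes, most of whose mRNAs carry poly(A) tails, were not tested against the members. Of 11, 3 were higher in FaDu control (H2AFJ at log2 2.57, H1F0 at 1.87 and H2AFY2 at 1.26) and 1 was lower (H2AFX at -1.28), against 38.1% of all genes altered. Their summed level was 2577 ± 70.5 CPM in FaDu control and 2148 ± 69.8 in SAS control, against 339.9 and 43.4 for the 71 members. None was altered by a treatment by edgeR, though up to 6 of 11 had an unadjusted p under 0.05. Among 15 RNAs without a poly(A) tail, 1 was tested between the controls and 0 were altered. Between the treated lines, SNORD3A was altered in RT (log2 1.62, edgeR adjusted p 0.00324) and RN7SL2 in HT (log2 1.32, edgeR adjusted p 1.91e-05), both higher in FaDu. In each group, 14 or 15 of the 16 gene identifiers of the list were under 1 CPM. RN7SK, RPPH1, RN7SL1, RNU12 and SCARNA2 had no count in any library. RN7SL2 was the most abundant of the list in every group, with a mean of up to 58.4 CPM (FaDu HT). RN7SL2 was the 1 gene of that list altered in an interaction, with a log2 difference of 1.21 for HT (edgeR adjusted p 0.0312).

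Markers of the labelled and of other cell types were read in the same libraries. All 10 epithelial markers, which take in KRT8, KRT18 and EPCAM beside squamous keratins such as KRT5, were above 1 CPM in every group. Their sums ran from 10520 to 17070 CPM per library, led by KRT17 in FaDu and KRT8 in SAS. Between the controls 5 were higher and 2 lower in FaDu. Of 6 fibroblast markers, 5 were under 1 CPM in every group, and COL1A1 was the 1 tested. COL1A1 was higher in FaDu control, at 41.9 ± 5.78 CPM against 1.33 ± 0.444 in SAS control (log2 5.01, edgeR adjusted p 3.07e-09). The fibroblast sum in SAS was 1.90, 1.65 and 2.42 CPM in control and 31.1, 17.0 and 24.9 CPM in HT, and COL1A1 was altered there (log2 4.18, edgeR adjusted p 6.35e-07), as were HIST2H2BE, HIST2H2BF and HIST1H2BD. In SAS HT+RT the sum was 25.0, 24.6 and 24.3 CPM and COL1A1 was altered too (log2 4.23), while of these 3 members only HIST2H2BF was. COL1A1 alone was at 23.6 ± 7.11 CPM in SAS HT and at 24.1 ± 0.384 CPM in SAS HT+RT, so these sums are nearly all that 1 gene. LUM was at 0 in FaDu control and DCN at 0 in SAS HT, and a part of fibroblasts in the result was not tested. The spheroids were grown from the tumor line alone. Of 4 endothelial markers, CDH5 was lower and PECAM1 higher in FaDu control, with sums of 8.04 ± 0.579 CPM in FaDu and 16.4 ± 5.02 in SAS and KDR at 0 in both. Of 5 leukocyte markers, CD14 made up nearly all of sums of 5.60 ± 0.576 and 8.22 ± 1.43 CPM, and none was altered.

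Histone pseudogenes were also counted. The 19 pseudogenes with such names summed to 18.6 ± 1.73 CPM in FaDu control and 5.40 ± 0.535 CPM in SAS control. HIST2H2BC held most of these counts, with 3308 over the FaDu libraries and 1143 over the SAS libraries, and was higher in FaDu by a log2 difference of 1.68 (edgeR adjusted p 7.7e-07, Benjamini-Hochberg). Among the others, HIST1H1PS1 had 202 counts in FaDu and 7 in SAS, and HIST1H2APS4 had 309 and 14, and both were altered and higher in FaDu. HIST2H2BD, with 119 and 56 counts, was not altered. HIST1H2BPS2 and HIST1H4PS1, both in the chromosome 6 stretch, had 70 and 43 counts in FaDu and 0 in SAS. Reads that fit a member and a pseudogene equally well cannot be assigned from these tables.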

How the data were processed

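The deposited values are raw read counts per Ensembl gene, which the authors made from sequencing reads. The labels name bcl2fastq and DESeq2, and list a mouse genome build (mm9) although the identifiers are human; aligner, counting program and strand setting are not given in the sources used here. The 24 libraries were read from 7 count tables, and 18 repeated columns were identical. Names came from GENCODE 29 (56898 genes matched). The members and lists were chosen with earlier results of these data known.

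Each of 14 comparisons was fitted over all genes with edgeR 4.0.16 in R 4.3.3 (TMM, minimum count 10, quasi-likelihood test, Benjamini-Hochberg), and the scripts were tested on simulated data. Alternatives were DESeq2 1.42.0, RLE factors, no filter, adjusted p alone, the replicate number as a block, and leaving out each library. Within a line, same-numbered libraries deviated together (FaDu HT+RT and control: correlations from 0.22 to 0.445, all pairs above 0.1), except for SAS HT against control (0.025 to 0.181; SAS HT and HT+RT 0.165 to 0.295); across lines they did not (-0.018 to 0.098 in control).

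Named are members altered against control or in an interaction, and the highest member per class and length in each line. So are the 5 largest and 5 smallest altered differences between controls (average log2 CPM of at least 1, no overlap). Genes of the lists are named where altered between the controls, against control or in an interaction, except epithelial markers. Altered between the lines only in treated groups were, among others, UHRF1, HAT1, SNORD3A, VWF and SLBP. ZCCHC6, 1 of 22 processing genes, was not found. Normalized tables were not used, since they hold the same libraries.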

Additional observations from a re-analysis of the deposited data

Results flagged for a closer look

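In all, 4 results stood out because the response to treatment differed between FaDu and SAS in a test of the difference itself. The log2 response of HIST3H2A to HT was larger in FaDu by 1.15, and to HT+RT by 1.1, which fell to just under the fold threshold (0.97 to 0.9999) in 3 of 16 settings. For HIST1H2BD the difference in HT was -1.27, with means of 32.6 and 26.6 CPM in FaDu control and HT and of 1.04 and 2.08 CPM in SAS control and HT. For HIST1H3E the difference in HT+RT was -2.02, with means of 6.86 and 4.45 CPM in FaDu and of 0.210 and 0.586 CPM in SAS. This call was lost in 7 of 16 settings (adjusted p from 0.00665 to 0.122, edgeR with Benjamini-Hochberg or DESeq2). The HT and HT+RT tests share their control libraries. The causes were not tested.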

How the results depend on the processing

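Of 70 alternative counts of altered members (14 comparisons, 5 settings each), 61 stayed within 1.5 times the reported count and 9 did not. For FaDu HT the count of 2 became 1 with DESeq2, 1 with RLE factors, 1 without the filter and 7 at adjusted p alone. For FaDu HT+RT it became 4 with the replicate block and 5 at adjusted p alone. For SAS HT+RT the count of 1 became 2 at adjusted p alone. For the HT+RT interaction the count of 2 became 4 without the filter and 4 with the replicate block, HIST1H2BD and HIST2H2BF being added both times. The block changed no other count by over 1.5 times; between the lines it gave 29 in control, 27 in RT, 26 in HT and 28 in HT+RT. Leaving out a library gave 1 to 2 members for FaDu HT (HIST2H4A lost each time, HIST2H2BE or HIST1H3J gained in 3 fits), 1 to 2 for FaDu HT+RT, 1 to 2 for SAS HT+RT and 1 to 4 for the HT+RT interaction.

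Over 50 log2 fold changes of named members, 532 alternatives kept the call, 27 lost it and 12 gained it; the sign turned in 1, HIST1H3E in FaDu HT, from -0.13 to 0.037 without FaDu control replicate 3 and -0.26 without FaDu control replicate 1, with no call in either fit. HIST3H2A in the HT+RT interaction lost its call in 3 of 16 settings, with differences from 0.97 to 0.9999 (without FaDu HT+RT replicate 3, SAS control replicate 3 or SAS HT+RT replicate 2). No altered member reversed. The cause of these shifts was not tested beyond the smaller number of libraries or genes. With 3 libraries a group and few counts for most members, especially in SAS, small changes in members under a few CPM may be missed at this depth.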
